A study of Rattus norvegicus with 15 samples.

Results

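The inferior colliculus (IC), the auditory nucleus of the midbrain, was compared between Wistar audiogenic rats (WAR) killed 60 min after an audiogenic stimulus (WAR S) and WAR that had been exposed to none (WAR N). The arrays were chosen by their titles and were 9 of the 15 arrays of the series, 5 of WAR S and 4 of WAR N. The other 6 arrays, 2 of stimulated Wistar rats (Wistar S) and 4 of naive Wistar rats (Wistar N), were used only to set the WAR difference beside that of the parent strain. All animals were males 12 weeks old, and each array held RNA from the IC of both sides of 1 animal, measured on Affymetrix Rat Gene 1.0 ST arrays. The WAR is a strain bred for seizures in response to loud sound, from the animal house of Ribeirão Preto, whereas the Wistar rats came from Charles River Laboratories. According to the study's methods the stimulated WAR convulsed and the stimulated Wistar rats did not, so that in WAR S the sound and the seizure cannot be told apart. No label gives the seizure score of a single animal.

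The values are log2 intensities, in which a difference of 1 is a doubling. Stimulated and naive arrays had been normalized in separate runs: any 2 stimulated WAR arrays shared between 2721 and 3286 identical values among 29214 probe sets, and a stimulated and a naive WAR array shared 0. The 9 arrays were therefore brought to 1 distribution by quantile normalization before the comparison, but sound and normalization run still cannot be told apart. The sample descriptions have 2 forms, here called label set 1 (WAR N replicates 1 and 2; WAR S replicates 1, 2 and 5) and label set 2 (WAR N replicates 3 and 4; WAR S replicates 3 and 4), and no source says what the forms stand for. WAR S replicate 4 differed from the rest in genes of serotonin neurons. Tph2, which makes serotonin, read 9.92 there against 5.61 to 5.91 in the other 8 WAR arrays, and Slc6a4, the serotonin transporter, read 7.57 there against 6.00 to 6.44. Whether tissue beside the IC was included in that sample was not tested. Without this array 2097 genes were called in the comparison below, where all 9 arrays gave 2447. The 17 measured neuron markers had a mean level between 10.87 and 11.15 in all 9 arrays, and the choroid plexus gene Ttr, by contrast, lay between 5.27 and 5.80.

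When neurons fire strongly, calcium entry and the MAP kinase cascade activate transcription factors already present in the cell, and within minutes these switch on the immediate early genes. Many of them, such as Fos, Junb, Npas4 and the Egr family, code for transcription factors that drive a second wave of genes acting on synapses, and others, such as Arc, act at the synapse directly. Inhibitors such as Nab2, which binds Egr proteins and represses their targets, and the Dusp phosphatases, which switch off MAP kinases, are induced as well and end the response. In the IC of audiogenic rats, where the seizure starts, such genes are the natural positive control for a comparison of stimulated with naive animals.

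The promoters of Egr1, Rgs2 and Nab2 are printed here, as genes described below that differ in how many motifs of activity-regulated factors lie there. Each is the stretch just before the transcription start, 5′ to 3′, from the RefSeq annotation of GRCr8. Capitals mark matches to the motifs searched on both strands (the half-site reads CGTCA where it lies on the other strand), namely the half-site TGACG of the cAMP response element, the full element TGACGTCA, the CArG box bound by serum response factor, and the Egr site GCGTGGGCG. A half-site inside a full element counts for both. Of 33469 rat promoters, taken over the same stretch before the start, 18.2% hold the half-site, 1.59% the full element, 1.5% a CArG box and 0.478% the Egr site.
Egr1 (chr18:26736828-26737077, plus strand): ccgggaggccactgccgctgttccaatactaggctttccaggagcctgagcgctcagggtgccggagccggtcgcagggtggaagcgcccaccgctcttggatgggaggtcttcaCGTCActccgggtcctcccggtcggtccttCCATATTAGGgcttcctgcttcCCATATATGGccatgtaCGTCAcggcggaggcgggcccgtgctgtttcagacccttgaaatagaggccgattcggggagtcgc
Rgs2 (chr13:58352667-58352916, minus strand): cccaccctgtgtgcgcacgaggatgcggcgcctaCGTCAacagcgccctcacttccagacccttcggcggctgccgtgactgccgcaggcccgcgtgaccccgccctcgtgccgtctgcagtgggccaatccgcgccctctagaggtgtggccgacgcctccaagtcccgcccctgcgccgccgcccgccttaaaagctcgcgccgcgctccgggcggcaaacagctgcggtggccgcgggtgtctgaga
Nab2 (chr7:65389256-65389505, minus strand): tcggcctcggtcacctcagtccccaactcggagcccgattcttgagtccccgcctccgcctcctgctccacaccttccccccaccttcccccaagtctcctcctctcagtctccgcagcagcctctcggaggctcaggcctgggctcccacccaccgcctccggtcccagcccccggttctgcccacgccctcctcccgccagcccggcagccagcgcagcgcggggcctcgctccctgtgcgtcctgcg
The window of Egr1 holds 2 CArG boxes and 2 half-sites, that of Rgs2 holds 1 half-site, and that of Nab2 holds none of the 4 motifs.

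Egr3 and Arc were the genes with the largest rises in the IC of stimulated WAR among all 14506 genes tested. Egr3, a transcription factor of the Egr family, read 7.24, 7.43, 7.36 and 7.64 in WAR N replicates 1 to 4 and 8.64, 8.60, 9.00, 8.77 and 8.91 in WAR S replicates 1 to 5. All 5 stimulated animals lay above all 4 naive ones, with a wide gap between the groups. The difference was 1.37 ± 0.10 (SE, n = 5 and 4), a fold change of 2.59, with an adjusted p of 0.000101 (limma). Arc, whose protein is made at activated synapses, read 7.87, 7.80, 7.95 and 8.08 in WAR N and 8.65, 8.53, 9.79, 9.74 and 8.85 in WAR S. Again the groups did not overlap, but here replicates 3 and 4 of WAR S stood about 1 unit above the other stimulated animals. The difference in Arc was 1.19 ± 0.26 (adjusted p = 0.0132), and it was 0.75 (adjusted p = 0.00489) without these 2 arrays.

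At an adjusted p under 0.05, 2447 of the 14506 genes (16.9%) differed, of which 1159 (7.99%) rose and 1288 (8.88%) fell. When a change of 2-fold or more was also asked for, 3 genes (0.0207%) were left, namely Egr3, Arc and Rpa3. Rpa3, a subunit of the replication protein that binds single-stranded DNA, rose by 1.11 ± 0.14 (adjusted p = 0.000642) from a range of 6.36 to 6.86 to one of 7.44 to 7.95. Of the core list of 24 activity-induced genes, 22 were measured under a name, and 5 of them (22.7%) rose and 0 fell. The difference was above 0 in 20 of the 22 and the median difference was 0.27, against 0.0005 over all genes. The groups did not overlap, with WAR S above, in 6 of the 22, where 9.15% of all genes had that pattern and 10.2% the opposite one.

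**Figure D1:**
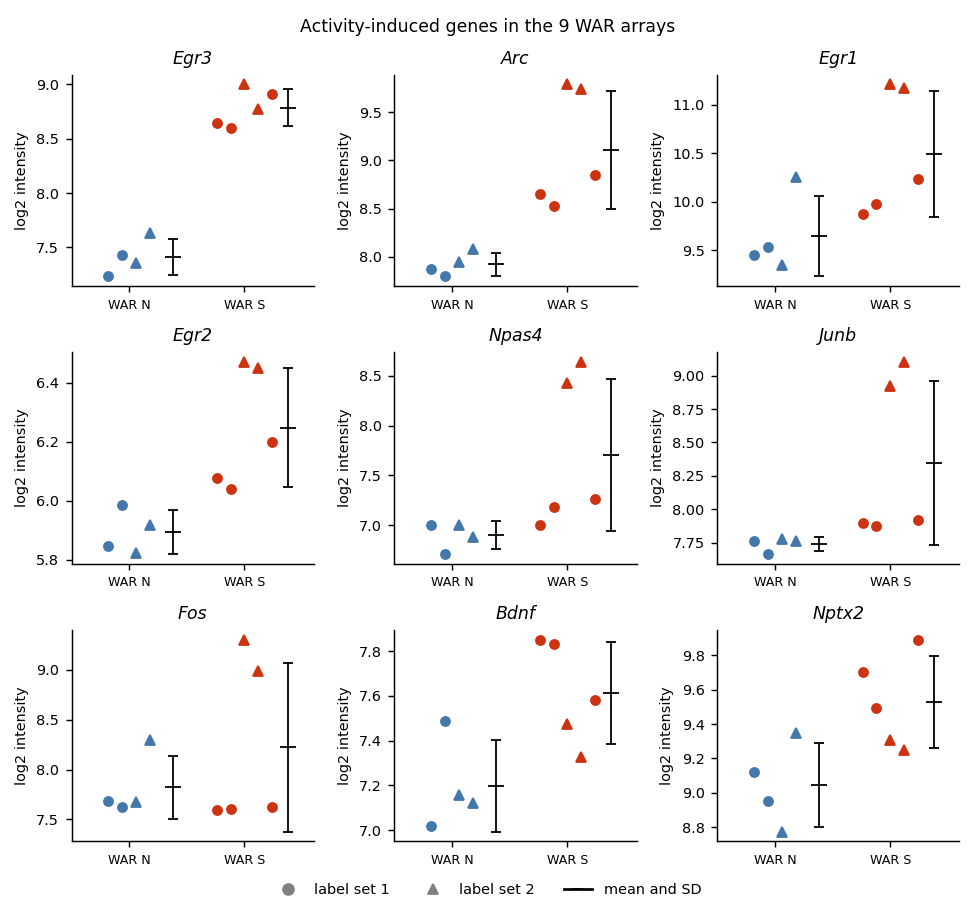
Log2 intensity of 9 activity-induced genes in the 4 WAR N and 5 WAR S arrays, with circles for label set 1, triangles for label set 2, and a bar for the mean and SD of each group. Egr3 is high in all 5 stimulated arrays (8.60 to 9.00), whereas Fos, Junb and Npas4 are high mainly in the 2 stimulated arrays of label set 2.

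The Egr family rose in part. Egr2 went from 5.85, 5.99, 5.82 and 5.92 in WAR N to 6.08, 6.04, 6.47, 6.45 and 6.20 in WAR S, with no overlap and a difference of 0.35 ± 0.10 (adjusted p = 0.0327). This call was lost in 6 of the 9 comparisons that left out 1 array. Egr1, the member with the highest level, read 9.45, 9.53, 9.34 and 10.25 in WAR N and 9.87, 9.97, 11.21, 11.17 and 10.23 in WAR S. Its naive replicate 4 exceeded 3 of the stimulated animals, and the difference of 0.85 ± 0.32 did not pass (adjusted p = 0.0989). Egr4 differed by 0.05 ± 0.08 (adjusted p = 0.764).

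The AP-1 genes and Npas4 divided the stimulated animals. Fos, the gene most used as a marker of neuronal activity, read 9.30 and 8.99 in WAR S replicates 3 and 4 and between 7.60 and 7.62 in the other 3, while WAR N lay at 7.69, 7.63, 7.67 and 8.30. The other 3 stimulated animals were thus no higher than the naive ones, and the difference over all arrays was 0.40 ± 0.38 (adjusted p = 0.537). Junb, a partner of Fos in AP-1, read 7.76, 7.67, 7.78 and 7.77 in WAR N and 7.90, 7.88, 8.92, 9.10 and 7.92 in WAR S. All 5 stimulated animals were above all naive ones, 3 of them narrowly, and the difference of 0.60 ± 0.26 did not pass (adjusted p = 0.155). Npas4, a factor induced by calcium entry that acts on inhibitory synapses, read 7.0, 6.71, 7.0 and 6.88 in WAR N and 7.0, 7.18, 8.43, 8.64 and 7.26 in WAR S. It showed the same division, and its difference was 0.80 ± 0.33 (adjusted p = 0.130).

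Jun rose more evenly. It went from a range of 7.85 to 8.50 in WAR N to one of 8.58 to 8.75 in WAR S, by 0.55 ± 0.11 (adjusted p = 0.00770), with no overlap. Nr4a2, an orphan nuclear receptor, went from 5.95 to 6.24 up to 6.53 to 7.27 and rose by 0.70 ± 0.15 (adjusted p = 0.0106), and it differed by 0.84 in Wistar rats. Its relatives Nr4a1 and Nr4a3 differed by 0.15 ± 0.20 and 0.31 ± 0.16 and did not pass (adjusted p = 0.668 and 0.219), and in both the highest array was WAR S replicate 3. Klf10, a zinc finger factor induced by growth signals, read 7.47, 7.48, 7.30 and 7.40 in WAR N and 7.84, 7.80, 8.33, 8.29 and 7.87 in WAR S, a rise of 0.61 ± 0.12 (adjusted p = 0.00761) without overlap. Over the whole list of activity-induced transcription factors, 8 of 31 rose (25.8%, against 7.99% of all genes), 3 fell (9.68%, against 8.88%) and the median difference was 0.24. With label set as a block 13 rose, against 9.84% of all genes. The list had a mean level of 7.18 to 7.72 in single arrays, and 22.5% of genes at 6.15 to 7.77 were called in either direction. The 3 that fell were Nfil3 by 0.50 ± 0.09, Jund by 0.34 ± 0.08 and Cebpb by 0.32 ± 0.06, all with WAR S below WAR N and all also lower in Wistar S than in Wistar N, by 0.66, 0.89 and 0.88. With Wistar N replicate 1 as the only naive array Cebpb fell by 0.18 in Wistar.

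The division ran along the label sets. In label set 2, WAR S differed from WAR N by 1.16 in Fos, 1.24 in Junb, 1.59 in Npas4, 1.39 in Egr1 and 1.75 in Arc, and in label set 1 the same genes differed by -0.05, 0.18, 0.30, 0.54 and 0.84. For Egr3 both values were 1.39. Over the 22 core genes WAR S replicates 3 and 4 exceeded WAR S replicates 1, 2 and 5 by a median of 0.45, with 17 genes higher, and in the naive animals, where there was no sound, replicates 3 and 4 exceeded replicates 1 and 2 by a median of 0.16, also with 17 genes higher. Naive animals thus differed by label set too, and the strength of the response in single animals cannot be told apart from it. With label set as a block in the fit, 11 of the 22 core genes rose and 0 fell, where 20.4% of all genes were called and 9.84% rose, and the genes added were Junb, Egr1, Npas4, Bdnf, Nptx2 and Sik1.

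**Figure D2:**
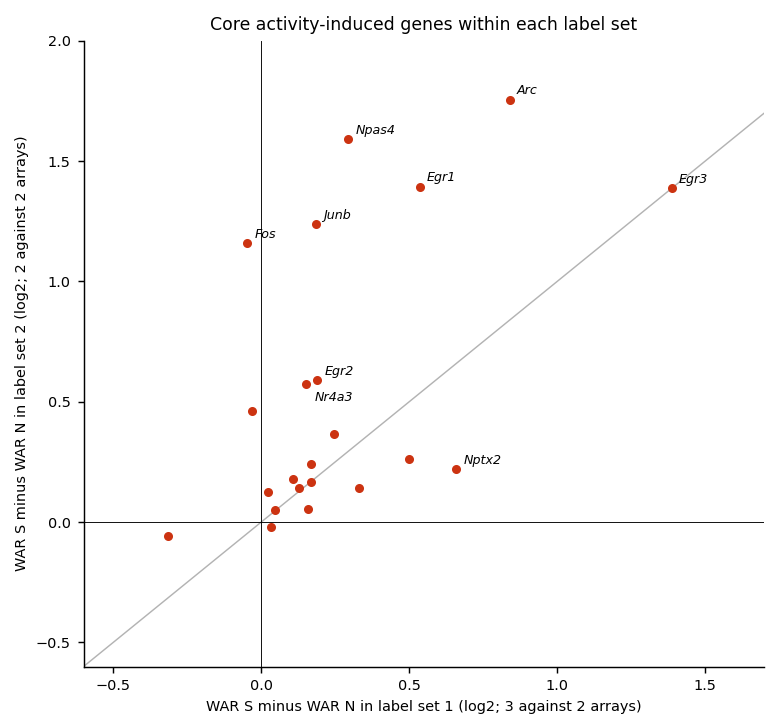
Difference between WAR S and WAR N (log2) of the 22 core activity-induced genes in label set 1 (x axis, 3 against 2 arrays) and label set 2 (y axis, 2 against 2 arrays), with a gray line where both are equal and names for genes above 0.5 in either. Egr3 lies on the line at 1.39, and Arc, Npas4, Egr1, Junb and Fos lie above it.

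Among the effectors of activity, which act at synapses, in signaling and outside the cell, 7 of 27 rose (25.9%) and 1 fell (3.7%), with a median of 0.17. The shares over all genes were 7.99% and 8.88%. With label set as a block 11 rose and 2 fell, where 9.84% and 10.6% of all genes did. Rgs2, which limits signaling by G protein-coupled receptors, read 9.05, 9.20, 9.31 and 9.40 in WAR N and 10.00, 9.72, 9.54, 9.51 and 9.77 in WAR S. The groups did not overlap, the highest stimulated animals were here those of label set 1, and the rise was 0.47 ± 0.11 (adjusted p = 0.0155). Bdnf, the neurotrophin, read 7.02, 7.49, 7.16 and 7.12 in WAR N and 7.85, 7.83, 7.47, 7.33 and 7.58 in WAR S. Its difference of 0.42 ± 0.13 had an adjusted p of 0.0501, and naive replicate 2 lay above 2 stimulated animals. Nptx2, a pentraxin that clusters AMPA receptors, read 9.12, 8.95, 8.77 and 9.35 in WAR N and 9.70, 9.49, 9.31, 9.25 and 9.89 in WAR S, a difference of 0.48 ± 0.15 (adjusted p = 0.0531). In both genes, as in Rgs2, the stimulated animals of label set 1 were the higher ones, the reverse of Fos and Npas4. Inhba, a subunit of activin, rose by 0.51 ± 0.10 (adjusted p = 0.00654) and Ccn1, a matrix protein, by 0.30 ± 0.06 (adjusted p = 0.00563), and both differed in the same direction in Wistar (0.80 and 0.32, with 0.51 for Inhba against Wistar N replicate 1 alone). Homer1 and Ptgs2 differed by 0.17 ± 0.16 and 0.20 ± 0.12, with overlap.

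Of 22 feedback inhibitors 4 rose (18.2%, against 7.99% of all genes) and 3 fell (13.6%, against 8.88%), with a median of 0.12. With label set as a block 7 rose and 3 fell, where 9.84% and 10.6% of all genes did. Nab2, the corepressor of Egr proteins whose promoter is printed above, read 7.34, 7.46, 7.64 and 7.83 in WAR N and 8.20, 8.16, 8.40, 8.32 and 8.13 in WAR S. Like Egr3 it was high in all 5 stimulated animals, and it rose by 0.67 ± 0.10 (adjusted p = 0.00178). Socs2, a brake on cytokine receptors, rose by 0.70 ± 0.09 (adjusted p = 0.000768) from a range of 6.87 to 7.12 to one of 7.40 to 7.82, and differed by 0.75 in Wistar. The MAP kinase phosphatases Dusp5 and Dusp4 rose by 0.31 ± 0.05 and 0.27 ± 0.07 (adjusted p = 0.00218 and 0.0207). Dusp1, the phosphatase usually first to be induced, overlapped between the groups (8.81 to 9.99 in WAR N, 8.91 to 9.77 in WAR S) and differed by -0.06 ± 0.25. Atf3 and Dusp1 were the only core genes with a difference below 0.

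The Wistar arrays allow the same contrast in rats that did not convulse. The stimulated arrays of both strains shared 2675 to 3286 identical values per pair, and pairs of a stimulated and a naive array shared 0, so the Wistar contrast is split between the runs in the same way. The Wistar side is small, with 2 arrays of Wistar S, both of label set 1. Wistar N replicates 1 and 4 were of label set 1 and replicates 2 and 3 of label set 2. The strains are thus not balanced for label set, and a difference between them cannot be fully told apart from it. Over the genes above the median level, the Wistar N replicates 2 to 4 lay at a root mean square distance of 0.54 to 0.67 log2 units from all WAR and Wistar S arrays and of 0.64 to 0.72 from Wistar N replicate 1, whereas the 9 WAR arrays lay within 0.11 to 0.34 of one another. Wistar values that turned or moved by over 1.5 times with Wistar N replicate 1 as the only naive array are given below with that value too. With 1 naive array the spread among naive Wistar animals is not measured, so only effect sizes are given for it.

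Among dim genes both strains shifted alike. In the 25% of genes with the lowest level (3.72 to 6.15), 32.1% were called in WAR and the WAR and Wistar differences had a correlation of 0.815 across 3627 genes. In the 25% with the highest level (9.13 to 13.76), 4.19% were called and the correlation was 0.098. The genes are not independent of each other, and the 2 contrasts share no array but do share the separate runs. With Wistar N replicate 1 as the only naive Wistar array the correlations were 0.727 and 0.280. Odorant receptor genes, a family known from the olfactory epithelium and listed after the values were seen, had 148 of 1052 called higher (14.1%) and 166 lower (15.8%). Of the 2447 genes called in WAR, 2199 (89.9%) had the same sign in Wistar, where 66.1% of all genes did.

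**Figure D3:**
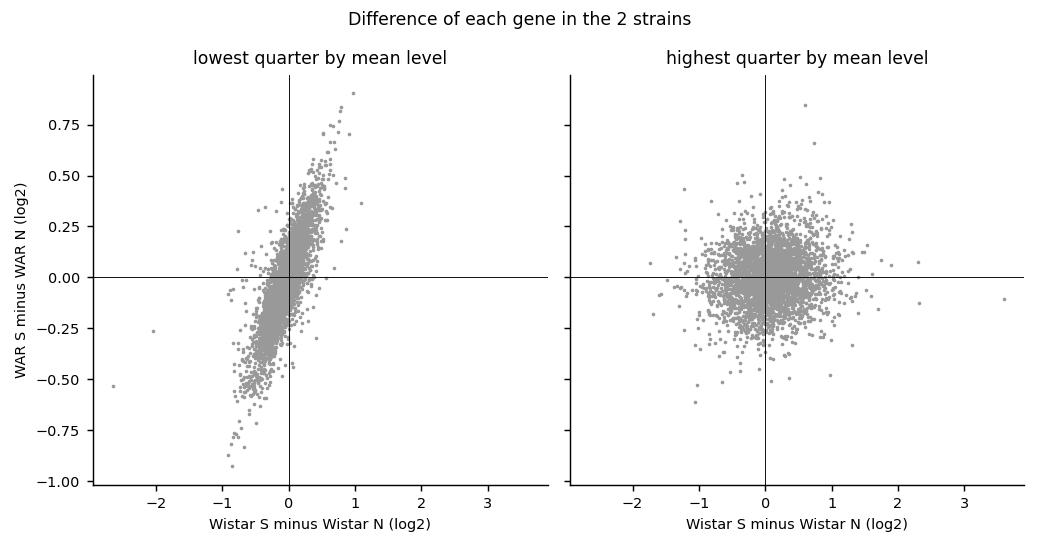
Difference of each gene between WAR S and WAR N (y axis, log2) against that between Wistar S and Wistar N (x axis, log2), for the 3627 genes of lowest mean level (left) and the 3627 of highest mean level (right), 1 point per gene. The dim genes lie along a line (r = 0.815) and the bright genes do not (r = 0.098).

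Most of the largest differences were of this shared kind. Of the 12 largest rises and 12 largest falls without overlap, 24 of 24 had the same sign in Wistar, and 23 with Wistar N replicate 1 as the only naive array, where Egr3 differed by -0.27. Pla2g1b, a secreted phospholipase, rose by 0.97 ± 0.08 in WAR and by 1.26 in Wistar, and Rasl11a, a small GTPase, by 0.90 ± 0.04 and 0.97. Hoxd9, a homeobox gene of the posterior body, differed by 0.84 and 0.82, and Il1r2, the decoy receptor of interleukin 1, by 0.83 and 0.79. Of the falls, Trarg1, a regulator of glucose transporter traffic, fell by 0.92 ± 0.07 in WAR and by 0.86 in Wistar, Bcl3, a partner of NF-κB, by 0.78 and 0.78, and Hrh4, a histamine receptor, by 0.74 and 0.72. These 12 rises also held Ddx39a, Nod2, Wfdc18, Or2av9 and Pou4f3 (0.77 to 0.86), and the falls held Tmem150b, Cyp2b3, Tgap1l6, Actl7b and the odorant receptors Or8a1, Or5p53, Or14j10b, Or2y15 and Or5c1 (-0.87 to -0.76). Egr3 and Arc were the members of the 24 whose Wistar difference over all arrays was smallest in size, at 0.12 and 0.35 (0.53 in Arc with Wistar N replicate 1 alone).

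The difference between strains was also tested. A gene met the rule used here when it was called in WAR without overlap and the interaction, the WAR difference minus the Wistar difference, had the same sign and an unadjusted p under 0.05. This held for 152 genes (1.05%), 95 rises (0.655%) and 57 falls (0.393%). The interaction had an unadjusted p under 0.05 in 287 of the 2447 called genes (11.7%) and in 2286 of all genes (15.8%), so it was not more frequent among the called genes. The interaction alone passed after adjustment for 18 genes (0.124%), 11 positive (0.0758%) and 7 negative (0.0483%), of which 2, Adprh and Ppp2r5d, were also called in WAR. With label set as a block it passed for 23 genes. Egr3 had the largest WAR difference of the 95, and its interaction was 1.27 ± 0.24 (adjusted p = 0.0527). It read 8.00, 7.80, 7.46 and 7.17 in Wistar N and 7.70 and 7.76 in Wistar S, so the stimulated Wistar rats lay inside the naive range. The interaction in Egr3 was 1.14 without Wistar N replicate 1 (adjusted p = 0.00151) and 1.66 with it as the only naive Wistar array.

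The rises next in size of the WAR difference were Nab2, Klf10, Zbed3, Gadd45a, Rgs2, Pcgf5 and Oxsm. Klf10 had an interaction of 0.90, which was 0.83 without Wistar N replicate 1 (adjusted p = 0.0102) and 1.10 with that array alone. Nab2 had one of 0.64 and Rgs2 one of 0.79. These became 0.69 and 0.62 with Wistar N replicate 1 alone. They were 0.63 and 0.84 without that array (adjusted p = 0.0133 and 0.00537). With all arrays, the interactions of Klf10, Nab2 and Rgs2 did not pass after adjustment. The fit without Wistar N replicate 1 called 3016 interactions, against 18 with all arrays. Zbed3 and Oxsm had interactions of 0.64 and 0.50, and of 0.22 and 0.22 with that array alone. In Gadd45a, a DNA damage gene, and Pcgf5, a polycomb subunit, the interaction was lost with that array alone. Gadd45a rose from 6.82 to 7.17 in WAR N up to 7.28 to 7.74 in WAR S, by 0.58 ± 0.10 (adjusted p = 0.00404), but it read 8.85, 8.69 and 8.78 in Wistar N replicates 2 to 4 against 6.87 in replicate 1. Its interaction was 1.36 with all arrays and -0.07 with replicate 1 alone, and that of Pcgf5 was 1.20 and 0.13. The ribosomal protein gene Rpl8, also among the 95, went from 1.66 to 0.0033.

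**Figure D4:**
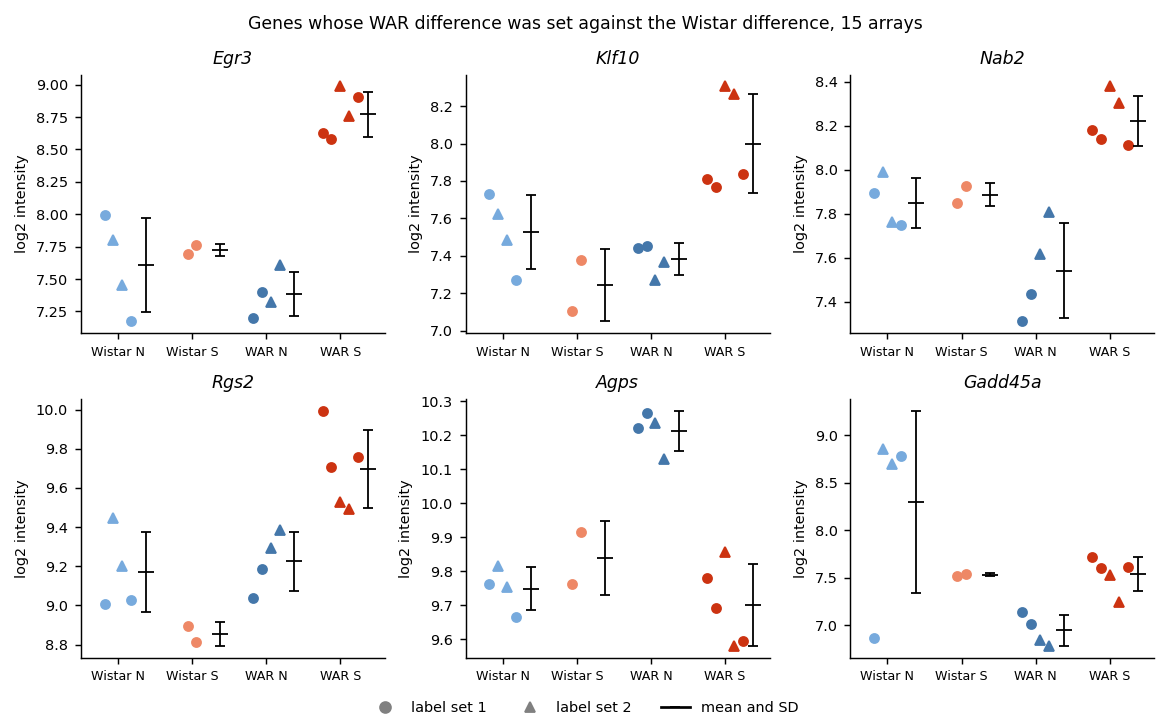
Log2 intensity of 6 genes in all 15 arrays by group, with circles for label set 1, triangles for label set 2, and a bar for the mean and SD. Egr3 is at 8.58 or more in WAR S while the Wistar groups overlap, and the naive Wistar arrays of Gadd45a lie at 6.87 in 1 and at 8.69 or more in 3.

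Of the 8 largest falls that met the rule, that of Agps had an interaction that changed least with the naive Wistar arrays used. Agps, an enzyme of ether lipid synthesis in peroxisomes, read 10.23, 10.27, 10.24 and 10.14 in WAR N and 9.79, 9.70, 9.87, 9.59 and 9.61 in WAR S. It fell by 0.51 ± 0.07 (adjusted p = 0.00091), with no overlap. Its interaction was -0.60 (adjusted p = 0.0516), -0.61 without Wistar N replicate 1 and -0.59 with that array alone, and the Wistar arrays lay between 9.67 and 9.92, below the WAR N animals, at 10.13 to 10.27 on the same scale. Bmp7, a bone morphogenetic protein, fell by 0.57 ± 0.09 (adjusted p = 0.00249), but its interaction of -0.46 became 0.0009 with Wistar N replicate 1 alone. The falls of Snrk, Dctpp1, Abhd10, Aspn, Serpinb6b and Or9q1 lay between -0.49 and -0.42, and their interactions of -0.77 to -0.47 became -0.40 to -0.14 with that array alone. Adprh, which removes ADP-ribose from arginine, and Ppp2r5d, a regulatory subunit of phosphatase 2A, rose in WAR by 0.21 ± 0.05 and 0.31 ± 0.08 (the call in Ppp2r5d held in 4 of 9 comparisons that left out 1 array) and had interactions of 0.96 and 1.14 (adjusted p = 0.00918 and 0.0272). Adprh was at 9.26 to 9.64 in Wistar N, 8.65 and 8.81 in Wistar S and 8.34 to 8.69 in all WAR, so that most of the interaction was the Wistar difference.

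Of 18 heat shock and chaperone genes 3 rose (16.7%, against 7.99% of all genes) and 0 fell, with a median of 0.16 and 16 differences above 0. With label set as a block 5 rose, where 9.84% of all genes did. The 3 were Dnaja4 (0.44 ± 0.11), Hspa4 (0.24 ± 0.06) and Chordc1 (0.46 ± 0.14), co-chaperones and a chaperone of the heat shock system. In Wistar Chordc1 differed by 0.62, more than in WAR. Dnaja4 and Hspa4 differed there by -0.17 and -0.14, and both by 0.31 with Wistar N replicate 1 alone. Of the 9 comparisons that left out 1 array, 4 kept the call in Dnaja4, 4 that in Hspa4 and 1 that in Chordc1. Hspb1, the small heat shock protein of stressed neurons and glia, read 5.96, 6.21, 6.33 and 6.63 in WAR N and 6.64, 6.59, 7.57, 7.40 and 6.64 in WAR S, so that it again was highest in replicates 3 and 4, and it differed by 0.68 ± 0.23 (adjusted p = 0.0682, and 0.00162 with label set as a block). Of 18 genes of the unfolded protein response 2 rose (11.1%), Ppp1r15a (0.29 ± 0.05, adjusted p = 0.00307) and Dnajb9 (0.30 ± 0.07, adjusted p = 0.0146). In Wistar Ppp1r15a differed by -0.22 and Dnajb9 by 0.40. Of 18 glucocorticoid-induced genes 2 rose (11.1%), Cdkn1a (0.40 ± 0.08, adjusted p = 0.00960) and Klf9 (0.27 ± 0.08, adjusted p = 0.0374), and the call in Klf9 held in 2 of 9 comparisons that left out 1 array. The glucocorticoid list had a median difference of 0.04 between WAR S and WAR N, while naive replicates 3 and 4 exceeded naive replicates 1 and 2 by a median of 0.51.

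Among 21 genes of inflammatory signaling 4 rose (19%) and 3 fell (14.3%), where 7.99% and 8.88% of all genes did. The list was dim, with a mean level of 6.385 to 6.483 in single arrays. Of genes at 6.15 to 7.77, 22.5% were called in either direction, and of those at 3.72 to 6.15, 32.1%. The rises were in the chemokines Ccl4 (0.34 ± 0.08), Cxcl10 (0.28 ± 0.06) and Ccl3 (0.24 ± 0.05) and in the adhesion molecule Vcam1 (0.22 ± 0.06), which are named after their values were seen. Il1b fell by 0.43 ± 0.07 and Tnf by 0.32 ± 0.06, from levels near 6, and both fell alike in Wistar (by 0.38 and 0.35). Of 13 clock genes Cry1 alone was called, with a rise of 0.38 ± 0.07 (adjusted p = 0.00703) from 7.15 to 7.48 up to 7.62 to 7.83, and Per1, which is also induced by activity, differed by 0.06 ± 0.27. Cry1 differed by -0.31 in Wistar, and by 0.24 with Wistar N replicate 1 as the only naive array, and its interaction was 0.69 and 0.14.

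Markers of the cell types that the tissue could hold were examined next. Their counts stand beside the 7.99% of all genes that rose and the 8.88% that fell, and several shares were near these. Of 17 neuron, 17 astrocyte and 21 GABA and glycine genes, 0 were called in either direction, with medians of 0.07, 0.04 and 0.05. Of 23 endothelial markers 0 rose and 2 fell (8.7%), 4 differences were above 0, and the median was -0.11. The mean level of these markers ran from 8.00 to 8.47 in WAR N and from 7.97 to 8.38 in WAR S, so the groups overlapped. Ocln, a tight junction protein, fell by 0.65 ± 0.14 (adjusted p = 0.00999) and Egfl7, a secreted vessel factor, by 0.42 ± 0.10 (adjusted p = 0.0152), while Abcb1a, the drug transporter of the blood-brain barrier, differed by -0.31 ± 0.16 (adjusted p = 0.240). Of 16 oligodendrocyte markers 1 rose (6.25%) and 2 fell (12.5%), with Bcas1 down by 0.46 ± 0.11. Of 19 microglial markers 1 fell (5.26%), of 13 choroid plexus markers 2 fell (15.4%), and of 11 ependymal markers 1 rose (9.09%). Of 14 meningeal fibroblast markers 3 rose and 3 fell (21.4% each), the share of calls being the highest among these marker lists, with Crabp2, a carrier of retinoic acid, up by 0.62 ± 0.07 (adjusted p = 0.00058) and Slc6a13, a GABA transporter, down by 0.47 ± 0.07 (adjusted p = 0.00223). Of 14 pericyte and smooth muscle markers 1 fell (7.14%), and of 7 red blood cell markers 1 fell (14.3%). Of 18 markers of the superior colliculus, cerebellum and monoamine nuclei, Gabra6 and Neurod1 rose by 0.36 ± 0.09 and 0.34 ± 0.07, from levels near 5, and rose more in Wistar (1.09 and 0.65). In bulk tissue, fewer cells of a type and less RNA per cell cannot be told apart, and the part of these markers in the results above was not tested.

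**Figure D5:**
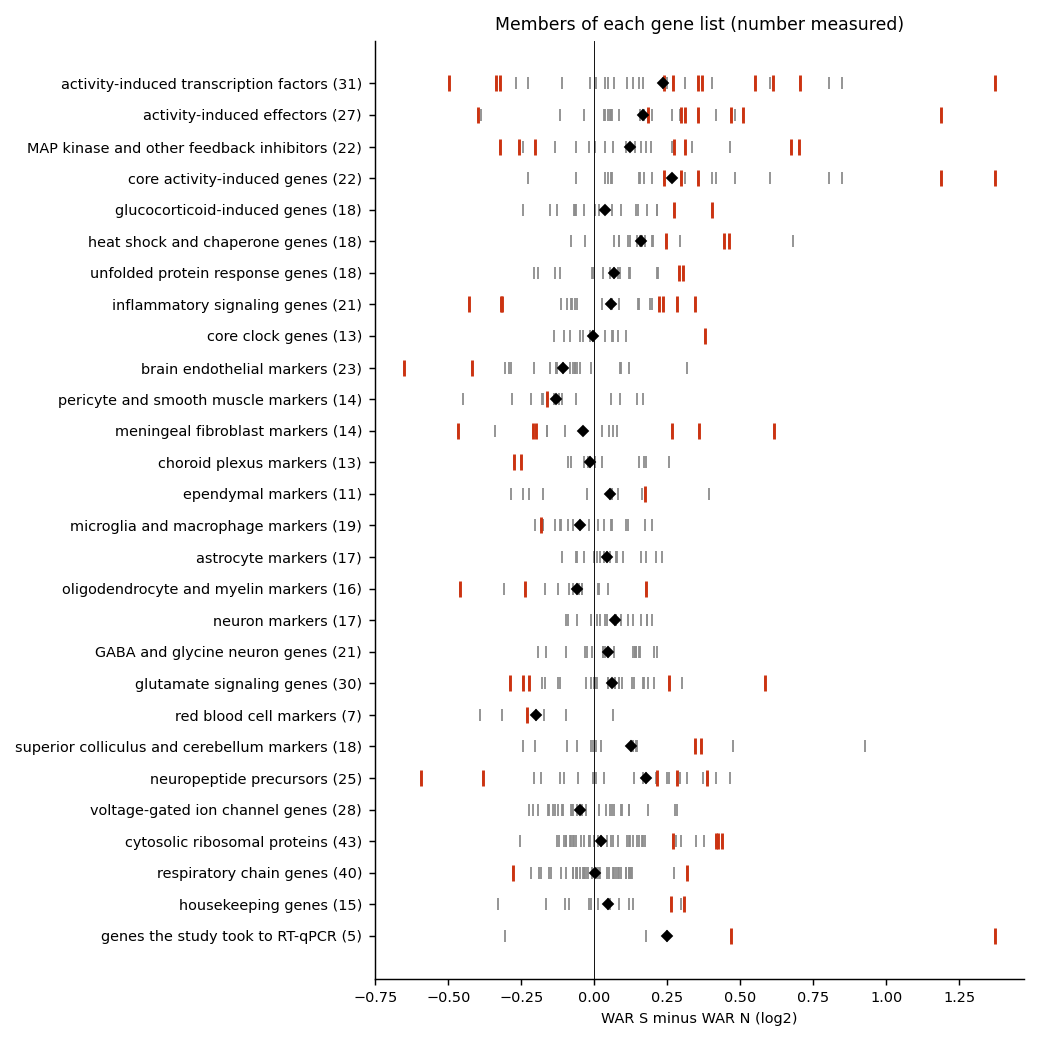
Difference between WAR S and WAR N (x axis, log2) of every measured member of each gene list, with gray ticks for members that did not pass, red ticks for those with an adjusted p under 0.05, and a diamond for the list median. The core activity-induced genes have a median of 0.27, and the lists of neurons, astrocytes and ion channels have no red tick.

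Of 28 genes of voltage-gated channels 0 were called, and 1, Scn2a, rose with label set as a block, where 9.84% of all genes did. Of 30 genes of glutamate signaling 2 rose (6.67%) and 3 fell (10%), shares near the 7.99% and 8.88% of all genes. Grik3, a kainate receptor subunit, read 7.62, 7.31, 7.34 and 7.70 in WAR N and 8.04, 8.15, 7.85, 7.99 and 8.37 in WAR S, a rise of 0.58 ± 0.12 (adjusted p = 0.00770) with no overlap. Slc17a8, a vesicular glutamate transporter, rose by 0.26 ± 0.06 from a level near 6. Of 25 neuropeptide precursors 3 rose (12%) and 2 fell (8%), with a median of 0.18. With label set as a block 5 rose and 2 fell, where 9.84% and 10.6% of all genes did. Cartpt rose by 0.38 ± 0.05 (adjusted p = 0.000989), from 6.25 to 6.41 up to 6.64 to 6.76, and Crh, the corticotropin-releasing hormone, fell by 0.59 ± 0.09 (adjusted p = 0.00200), from 6.58 to 7.0 down to 6.11 to 6.26. Crh fell by 0.94 in Wistar too, and by 0.60 with Wistar N replicate 1 alone, whereas Cartpt differed there by 0.09. Ucn, a relative of Crh, fell by 0.38 ± 0.05 in WAR, and by 0.31 in Wistar or 0.05 with Wistar N replicate 1 alone.

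Npy, Egr3, Rgs2, Ttr and Abcb1a were the genes that had also been taken to RT-qPCR. Npy, an inhibitory peptide, read 9.72, 10.17, 9.71 and 9.93 in WAR N and 10.33, 10.14, 9.97, 10.18 and 10.01 in WAR S. The groups overlapped through naive replicate 2, and the difference was 0.25 ± 0.11 (adjusted p = 0.148). Ttr, the carrier of thyroid hormone, differed by 0.18 ± 0.08 at a level of 5.27 to 5.80 (adjusted p = 0.189). Of the 5 genes of that set, Egr3 and Rgs2 were thus called in WAR S against WAR N. In the study's RT-qPCR of naive and stimulated WAR, Egr3 was higher after the seizure. For Rgs2, Npy and Ttr the study found no statistical difference there, so the call in Rgs2 differs from its RT-qPCR. The set was chosen in part on stimulated arrays of the series, so it is not independent evidence.

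Of 43 cytosolic ribosomal protein genes 4 rose (9.3%) and 0 fell, where 7.99% and 8.88% of all genes did, with a median of 0.02. The 4 were Rpl8 (0.44 ± 0.07), Rpl24 (0.42 ± 0.09), Rps18 (0.42 ± 0.10) and Rpl4 (0.27 ± 0.05). In Wistar Rps18 differed by 0.79, Rpl4 by 0.67, Rpl24 by 0.36 and Rpl8 by -1.22. With Wistar N replicate 1 alone Rpl4 differed by 0.35, Rpl24 by 0.88 and Rpl8 by 0.44. With label set as a block 7 of the 43 rose and 0 fell, where 9.84% and 10.6% of all genes did. Of 40 respiratory chain genes 1 rose and 1 fell, with a median of 0.0005. Of 15 housekeeping genes Gusb rose by 0.31 ± 0.05 and Ldha by 0.26 ± 0.07 (a call that held in 3 of 9 comparisons that left out 1 array), and the median was 0.05. With label set as a block 3 of the 15 rose.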

How the data were processed

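The data are Affymetrix Rat Gene 1.0 ST arrays, and the authors deposited RMA values on the log2 scale, 1 per probe set and array. No source used here names the software version. Of 29214 probe sets 15310 carried 1 symbol. Where 527 genes had several, that of highest mean level was used, giving 14506 genes. The 9 WAR arrays were quantile normalized together and compared in limma 3.58.1 (R 4.3.3), with 1 mean per group and Benjamini-Hochberg adjustment over all genes at 0.05. The interaction was fitted on all 15 arrays normalized together. Errors are standard errors of the fit, and precision is limited by how few arrays there are. Each array is 1 animal. The study's SAM test was not run. The fit was tested on simulated data.

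Members and lists were chosen with earlier results of these data known. Named genes were the core activity-induced genes, the RT-qPCR genes, the 12 largest rises and falls without overlap, the 8 largest rises and falls with an interaction, and 2 of smallest p per list. Added after their values were seen were Jun, Jund, Nr4a2, Crem, Nfil3, Cebpb, Dusp4, Dusp5, Hspb1, Chordc1, Crh, Tph2, Slc6a4, Rpl24, Rps18, Adprh and Ppp2r5d. Alternatives were other normalizations, blocks, label sets, filters, variance models and arrays left out.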

Additional observations from a re-analysis of the deposited data

Results flagged for a closer look

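A sample far from the rest of its group was found in 24 of 256 groups of arrays examined (128 named genes in WAR N and WAR S). Chance alone gives about 1 in 20 in independent groups, but these genes share the same arrays and were chosen in part by their values. WAR S replicate 4 was the distant array in 10 of them. Tph2, Slc6a4 and Jun had been added after their values were seen, so these counts are a description and not a test. It was high in Tph2 (9.92), Slc6a4 (7.57), Slc6a13 (7.35), Slc17a8 (6.36) and Rasl11a (6.45), and low in Ddx39a (6.78), Bcl3 (6.33), Myc (5.09), Scn1a (10.46) and Jun (8.58). WAR S replicate 3 was low in Or14j10b (4.95), replicate 2 was low in Hrh4 (4.70) and high in Serpinb6b (5.84), and replicate 5 was high in Ermn (11.72).

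Among the naive animals, WAR N replicate 4 was high in Fos (8.30), Il1b (6.58) and Ppp2r5d (8.96). Replicate 3 was high in Abhd10 (8.70), Bcas1 (11.62) and Ndufa5 (10.43) and low in Sostdc1 (6.03) and Tph2 (5.61), and replicate 2 was low in Junb (7.67) and Clock (10.18). The difference between the strains in the sound contrast passed the interaction test for 2 genes called in WAR, Adprh (0.96) and Ppp2r5d (1.14).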

How the results depend on the processing

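The 92 named genes called in WAR kept their sign under each alternative run for which they were tested (62 of them where the dimmest genes were left out). Many had been chosen for groups without overlap or for the same sign in both label sets, so their sign could hardly turn. Of the 92, 60 were still called in label set 1, 0 in label set 2, 64 with all 15 arrays in the model and 68 without WAR S replicates 3 and 4. It was 55 of 62 without the dimmest genes, and 76 to 91 of 92 in the other runs. The 2447 genes called became 3940 on the deposited values, 763 without the 25% of lowest level, 5238 over all probe sets, 1481 with all 15 arrays in the model, 1098 in label set 1 and 0 in label set 2 (limma; 2547 at an unadjusted p under 0.05), and 1721 to 2430 with 1 array left out. The 3 genes past 2-fold became 5 on the deposited values, 14 on normal scores of ranks, 0 in label set 2, 13 over all probe sets and 3 to 4 with 1 array left out. The 5 core genes that rose became 8 on the deposited values, 11 with label set as a block, 0 in label set 2, 3 without the 25% of lowest level and 4 to 6 with 1 array left out, and the core median then ran from 0.206 to 0.287. Same-numbered animals of WAR N and WAR S had correlations of 0.144, 0.621, 0.049 and 0.193 in their deviations, and other pairs of the same label set had -0.222 to 0.575. Not every pair passed 0.1 and no source ties the numbers to a shared animal or day, so the numbers were not taken to pair the animals. With the replicate number as a block 1751 genes were called.

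The 18 interactions became 8 with stimulated and naive arrays normalized apart and put on normal scores, 0 in label set 1, 0 with the replicate block, 0 without Wistar S replicate 2 and 3016 without Wistar N replicate 1. Settings added after seeing the data were leaving out WAR S replicates 3 and 4, which gave 1389 called genes and 3 interactions, and leaving out Wistar N replicates 2 to 4, which gave 615 interactions and turned those of Ttr (0.324), Gadd45a (-0.0723) and Bmp7 (9e-04). The cause was not tested.

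Some genes that did not pass changed sign, with Per1 (-0.285) and Fos (-0.211) the furthest from 0 among the reversed values. These were Dusp1 (0.0891) and Clock (0.0367) on the deposited values, Dusp1 with label set (0.0083) or replicate (7e-04) as a block, and in label set 1 Fos (-0.0466), Nr4a1 (-0.0295), Dusp1 (0.0336) and Slc6a4 (-0.192). Without WAR S replicates 3 and 4 they were Fos (-0.211), Egr4 (-0.0598), Nr4a1 (-0.106), Klf4 (-0.0174), Sik1 (-0.0384), Gadd45b (-0.137), Per1 (-0.285) and Slc6a4 (-0.176). Fos kept its sign with any 1 array left out (0.133 to 0.562) and turned where WAR S replicates 3 and 4 were both absent, as they were in label set 1. With 1 array left out, Klf4 ran from -0.0403 to 0.0934, Gadd45b from -0.0549 to 0.177, Per1 from -0.0918 to 0.205, Dusp1 from -0.22 to 0.174, Nr4a1 from -0.0286 to 0.235, Egr4 from -3e-04 to 0.0825 and Slc6a4 from -0.167 to 0.227.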
